A study of Mus musculus with 6 samples.

Results

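Interleukin-6 (IL-6), IL-11 and oncostatin M are related cytokines that share a signal-transducing receptor chain, gp130, encoded by *Il6st*. IL-6 and IL-11 first bind a receptor chain of their own, which for IL-6 is the IL-6 receptor (*Il6ra*), and then gp130. Oncostatin M binds gp130 and pairs it with the oncostatin M receptor (*Osmr*), and the LIF receptor (*Lifr*) serves leukemia inhibitory factor. Janus kinases bound to these chains then phosphorylate the transcription factor STAT3, and STAT3 induces *Socs3*, whose product binds gp130 and shuts the signal off. In tumors the pathway is best known for supporting tumor cell survival and suppressive myeloid cells, and fibroblasts, macrophages and neutrophils are among the known sources of its ligands.

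The 9 genes described here, *Il6*, *Il11*, *Osm*, *Il6ra*, *Il6st*, *Osmr*, *Lifr*, *Stat3* and *Socs3*, were chosen by name and not by a threshold on values among the 54309 gene identifiers of a bulk RNA sequencing table. Tumors came from female C57BL/6J mice, 7 weeks old, inoculated under the skin of the right flank on day 0 with 1000000 cells of MCA205, a transplantable mouse fibrosarcoma line. The Control group of 3 mice drank milliQ water, and the FF-10101 group of 3 mice drank 0.1 mg/mL of FF-10101, an irreversible inhibitor of FLT3 and CSF1R, from day 1 until the tumors were taken on day 8. All tumors come from a single transplanted line in hosts of a single strain and sex. Whole tumors were sequenced, with their stroma and infiltrating cells, so fewer cells of a type and less RNA per cell cannot be told apart, and RNA levels do not report the phosphorylation of STAT3.

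Reads per tumor numbered 9143806 to 9643535 in the Control group and 9277019 to 13258258 in the FF-10101 group. Values are normalized counts, reads scaled by the size factor of each tumor. Of the 12 fibroblast and sarcoma markers, none was at 0 in any tumor, with *Vim*, the intermediate filament of mesenchymal cells, between 28120 and 36521. The controls differed among themselves, as control tumor 1 had 8925 summed over 10 endothelial markers and 3200 over 10 T cell markers, against 2735 to 3614 and 1093 to 1270 in control tumors 2 and 3. FF-10101 tumor 1 had 1238 over 10 keratinocyte markers, against 67.4 to 253 in the other tumors, and skeletal muscle markers were read in every tumor (3571 to 13681). Results are therefore given with and without control tumor 1.

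Promoters of 8 of the 9 genes were found in the RefSeq table (build GRCm38.p6), which holds 250 bases before and 50 bases from each annotated start, and *Osm* was not matched. Both strands were searched for a STAT motif (TTCNNNGAA), an AP-1 motif (TGANTCA) and an NF-κB motif. The STAT motif was in 1 of the 10 promoters of these genes, that of *Socs3*, and in 8.3% of all 32851 promoters. The AP-1 motif was in those of *Il6* and *Osmr* and in the second annotated promoter of *Il11* (7.81% of all promoters), and the NF-κB motif only in that of *Il6* (0.411%). Those of *Socs3* (chr11:117969317-117969616, minus strand), *Osmr* (chr15:6874264-6874563, minus strand) and *Il6* (chr5:30012864-30013163, plus strand) are shown because they are the classical STAT3 target of the pathway, the single member whose groups did not overlap and the member with the highest fold, in that order. Capitals mark the motifs, which are matches of letters only. The motif of *Socs3* begins at base -154 and that of *Osmr* at base 4, counted from the annotated start as base 1 with no base 0, and those of *Il6* begin at bases -249 (AP-1) and -44 (NF-κB).

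Socs3: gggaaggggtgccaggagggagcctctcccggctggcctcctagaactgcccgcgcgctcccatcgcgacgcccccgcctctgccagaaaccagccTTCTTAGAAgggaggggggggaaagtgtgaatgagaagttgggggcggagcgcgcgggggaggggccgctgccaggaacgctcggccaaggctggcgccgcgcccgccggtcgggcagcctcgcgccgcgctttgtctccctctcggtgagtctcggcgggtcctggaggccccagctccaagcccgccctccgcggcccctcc

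Osmr: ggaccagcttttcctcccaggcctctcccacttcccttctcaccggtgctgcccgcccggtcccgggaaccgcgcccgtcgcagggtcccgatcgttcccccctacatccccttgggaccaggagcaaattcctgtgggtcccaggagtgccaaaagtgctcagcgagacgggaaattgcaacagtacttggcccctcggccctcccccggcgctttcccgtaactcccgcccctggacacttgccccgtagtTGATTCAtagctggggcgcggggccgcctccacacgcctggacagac

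Il6: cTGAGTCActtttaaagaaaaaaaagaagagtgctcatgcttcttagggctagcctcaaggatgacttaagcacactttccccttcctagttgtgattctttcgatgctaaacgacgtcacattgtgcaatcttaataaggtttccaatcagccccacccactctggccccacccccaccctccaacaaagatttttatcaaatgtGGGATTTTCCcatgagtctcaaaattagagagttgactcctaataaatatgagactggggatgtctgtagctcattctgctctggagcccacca

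Transcripts of the shared receptor chain and of the oncostatin M receptor were more abundant in the FF-10101–treated tumors than in most control tumors, whereas those of *Osm* itself were not. *Il6* had a higher mean on 2 to 44 reads a tumor. *Stat3* and *Socs3* were higher than in control tumors 2 and 3 but not than in control tumor 1. Of the members, 8 had at least 10 normalized counts on average, and none of them passed an adjusted p of 0.05 over the 13963 genes tested (limma on log2(normalized count + 1), Benjamini-Hochberg), a threshold that 0.0430% of all tested genes passed. An unadjusted p under 0.05 was reached by 3 of the 8, *Il6*, *Il6st* and *Osmr*, all higher, compared with 8.77% of all tested genes in that direction and 16.3% in either. *Il6* met the minimum mean of 10 only through the treated tumors, with means of 5.94 in the Control group and 21.0 in the FF-10101 group. Its place in this count is therefore no support. *Il11* lay under the minimum and was read from a fit without one. Limma-voom on the recovered reads called 0 of the 8 members, and 5 genes over the whole table.

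**Figure D1:**
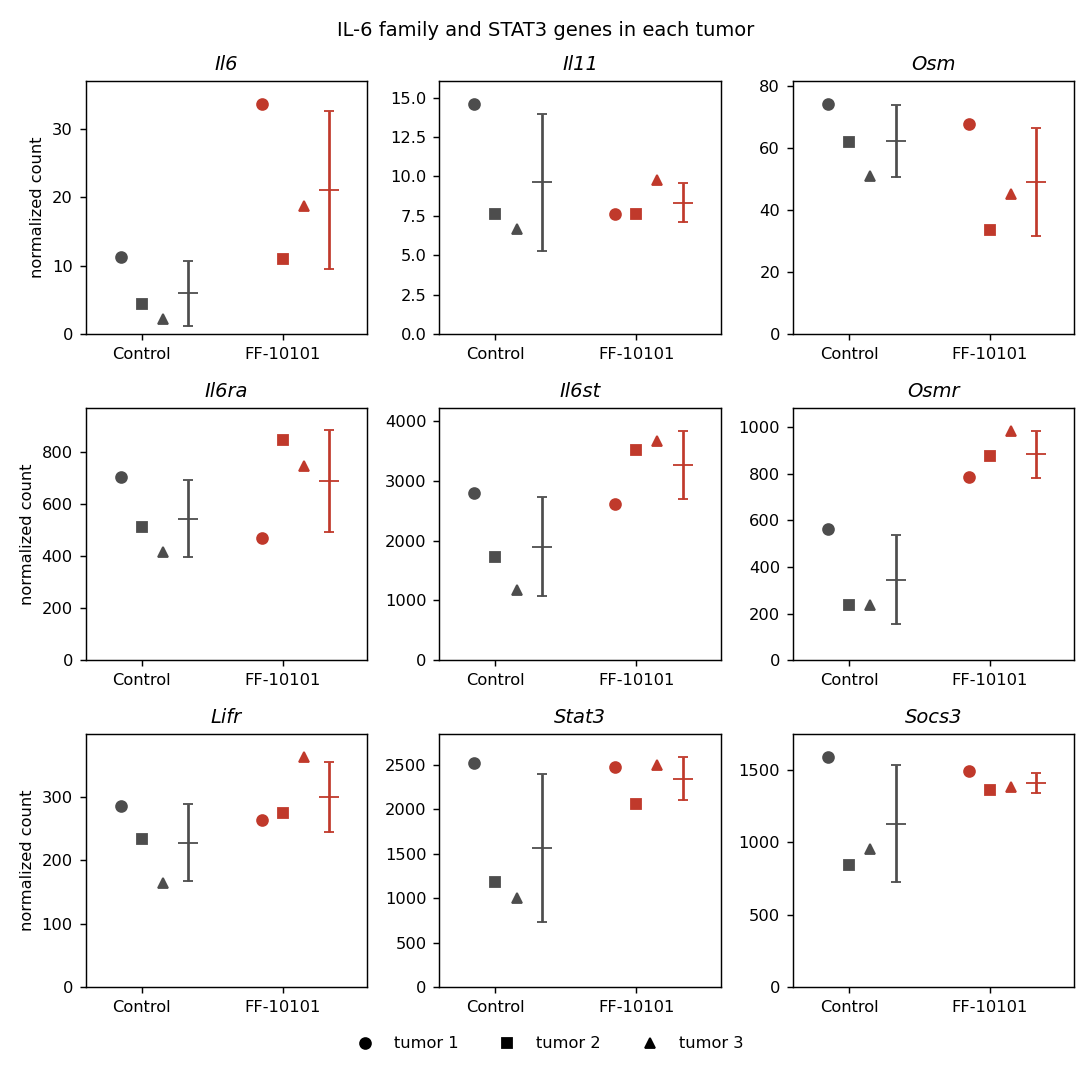
Normalized counts of the 9 genes (vertical axes, linear, from 0) in 3 Control tumors (gray) and 3 FF-10101–treated tumors (red); symbols number the tumors, and the bar beside them is the mean ± SD (n = 3). Only *Osmr* has groups that do not overlap, and control tumor 1 (circle) is the highest control in all 9 panels.

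Among the ligands, *Il6* (ENSMUSG00000025746) had 10, 4 and 2 reads in control tumors 1, 2 and 3, and FF-10101 tumors 1, 2 and 3 had 44, 10 and 21. These are 11.3, 4.35 and 2.22 normalized counts against 33.6, 10.9 and 18.7. The groups overlapped narrowly, as FF-10101 tumor 2 lay just under control tumor 1. The mean was 5.94 ± 4.73 in the Control group and 21.0 ± 11.6 in the FF-10101 group (SD, n = 3 each), 3.54 times as high. On the log2 scale it differed by 1.75 with a standard error of 0.69 (limma adjusted p = 0.285, exact two-sided permutation p = 0.2). FF-10101 tumor 1, the highest for *Il6*, was also the tumor with the most keratinocyte transcripts, whose part in this value was not tested; without that tumor the log2 fold change was 1.36.

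*Osm* (ENSMUSG00000058755), whose product is made mainly by activated neutrophils, macrophages and T cells, had 74.3, 61.9 and 51.0 normalized counts in the control tumors and 68.0, 33.7 and 45.3 in the FF-10101–treated tumors. The groups overlapped, and the lowest values were those of FF-10101 tumors 2 and 3. Its log2 fold change of -0.38 was close to its standard error of 0.33 (limma adjusted p = 0.584; exact permutation p = 0.4). Summed neutrophil markers were higher in every treated tumor, 2798 to 3257 against 1928 to 2290 over 12 markers. The granule gene *Ngp* was at 0 reads in every tumor, and *Camp* and *Ly6g* at 0 reads in all but 1. Of the 8 tested markers, 5 were higher at an unadjusted p under 0.05, beside 8.77% of all tested genes. *Mmp9*, the largest part of the sum in every tumor, overlapped between the groups (log2 fold change -0.13). So did *Retnlg*, *Mmp8* and *Csf3r*, at 0.70, 2.88 and 1.12. Summed macrophage markers were lower in every treated tumor, 24742 to 34678 against 42396 to 69979 over 12 markers, none of them at 0. Of the 12, 8 were lower at an unadjusted p under 0.05, beside 1046 of all 13963 tested genes. *C1qa* and *C1qb* were the largest of the 12 in every tumor, with log2 fold changes of -0.70 and -0.65. *Csf1r*, *Cd68*, *Fcgr1* and *Mertk* overlapped between the groups. Their log2 fold changes were -0.25, -0.13, -0.10 and 0.14, and without control tumor 1 they were 0.14, 0.28, 0.30 and 0.33. The part of either cell type in the level of *Osm* was not tested.

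*Il11* (ENSMUSG00000004371), a cytokine made by fibroblasts and other stromal cells, had 13, 7 and 6 reads in the control tumors, and the treated tumors had 10, 7 and 11. Apart from control tumor 1, with 14.6 normalized counts, the tumors lay between 6.66 and 9.78. A difference was not detectable at this depth (log2 fold change -0.12, standard error 0.60, adjusted p = 0.942 from limma without a minimum count).

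Of the receptor genes, *Osmr* (ENSMUSG00000022146) was the 1 member whose groups did not overlap. It had 565, 237 and 236 normalized counts in control tumors 1, 2 and 3 and 787, 875 and 985 in FF-10101 tumors 1, 2 and 3. Every treated tumor was above every control tumor, and control tumor 1 stood between the other controls and the treated tumors. These rest on 213 to 502 reads in the controls and 806 to 1108 in the treated tumors. The mean was 346 ± 190 against 882 ± 98.9 (SD, n = 3 each). The log2 fold change was 1.47, with a standard error of 0.33 (limma adjusted p = 0.229, exact two-sided permutation p = 0.1, the smallest that 3 against 3 allow). Groups that do not overlap, with the treated tumors higher, were found for 1 of the 8 tested members and for 10.9% of all tested genes, and the opposite for 0 of 8 and 9.37%.

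*Il6st* (ENSMUSG00000021756), which encodes gp130, had 2794, 1730 and 1170 normalized counts in the control tumors and 2609, 3513 and 3666 in the treated tumors. Only control tumor 1 reached the treated range, where it lay above FF-10101 tumor 1. The mean was 1898 ± 825 against 3263 ± 571 (SD, n = 3 each), and the log2 fold change 0.86 (standard error, SE, 0.31, limma adjusted p = 0.258). *Il6ra* (ENSMUSG00000027947), the chain that binds IL-6 in the membrane or, once shed, in solution, had 706, 514 and 415 against 470, 847 and 748, with FF-10101 tumor 1 among the controls. *Lifr* (ENSMUSG00000054263) had 285, 234 and 164 against 263, 274 and 363, with a single treated tumor above control tumor 1. The log2 fold changes of *Il6ra* and *Lifr* were 0.33 and 0.42, with standard errors of 0.28 and 0.25 (adjusted p = 0.572 and 0.427 from limma). Part of the *Il6ra* transcript (242 bases) is complementary to the predicted gene *Gm42809*, which had at most 7.76 normalized counts in a tumor.

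Levels of different genes were compared per kilobase of the longest annotated transcript. On this scale *Il6st* was the most abundant receptor chain of the 4 members, with 219 ± 95 normalized counts per kilobase in the Control group and 376 ± 65.8 in the FF-10101 group (SD, n = 3 each). *Osmr* and *Il6ra* were level in the Control group, at 63.0 ± 34.5 and 63.1 ± 17.1 per kilobase, and in the FF-10101 group they were further apart than their spread, at 161 ± 18.0 and 79.6 ± 22.6. *Lifr* was the lowest of the receptor chains in both groups, with 23.6 ± 6.27 and 31.0 ± 5.68 per kilobase. The 3 ligand genes lay lower than *Il6ra* throughout, the highest being *Osm* with 27.5 ± 5.12 and 21.6 ± 7.68. The mean of *Osm* was within the spread of *Lifr* in the Control group. In the FF-10101 group it lay below that spread, although the spreads of the 2 genes overlapped. *Socs3* was the highest of all 9, at 443 ± 158 and 553 ± 27.8, followed by *Stat3* at 259 ± 138 and 388 ± 40.4. *Socs3* and *Stat3* overlapped within their spread in the Control group, and *Stat3* and *Il6st* did so in both groups. The order depends on the length used, and other lengths were not tried for it. The median annotated transcript is 490 bases for *Socs3* and 749 for *Stat3*, against 2552 and 6042 for the longest.

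The specific receptor chains were then set against each other within each tumor, with *Il11ra1*, the receptor of IL-11, as the fourth. *Osmr* made up 19.9%, 10.1% and 7.6% of the sum of the 4 per kilobase in the control tumors and 29.0%, 25.8% and 25.4% in the treated tumors. *Il11ra1* made up 58.7%, 70.3% and 80.9% against 54.6%, 53.7% and 57.1%. For both chains the groups did not overlap, with differences of 14.2 percentage points for *Osmr* and -14.8 for *Il11ra1* (exact two-sided permutation p = 0.1 each, the smallest possible, adjusted p = 0.2 over the 4 chains). Shares of the same sum cannot move independently, so the difference of *Il11ra1* is not a separate result from that of *Osmr*. The difference of *Il11ra1* was -9.35 points without control tumor 3 and -20.5 without control tumor 1. The level of *Il11ra1* itself was 921 ± 235 and 872 ± 173 normalized counts (SD, n = 3 each), so its share was lower in every treated tumor while its own log2 fold change was -0.07 (standard error 0.22). The shares of *Il6ra* and *Lifr* differed by 0.3 and 0.342 points, less than the spread between tumors (exact permutation p = 0.9 and 1). *Il11ra1* has near-identical copies, *Il11ra2* and the predicted gene *Gm13305*, at most 2.67 and 1.13 normalized counts in a tumor, so the division of reads among them is uncertain.

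**Figure D2:**
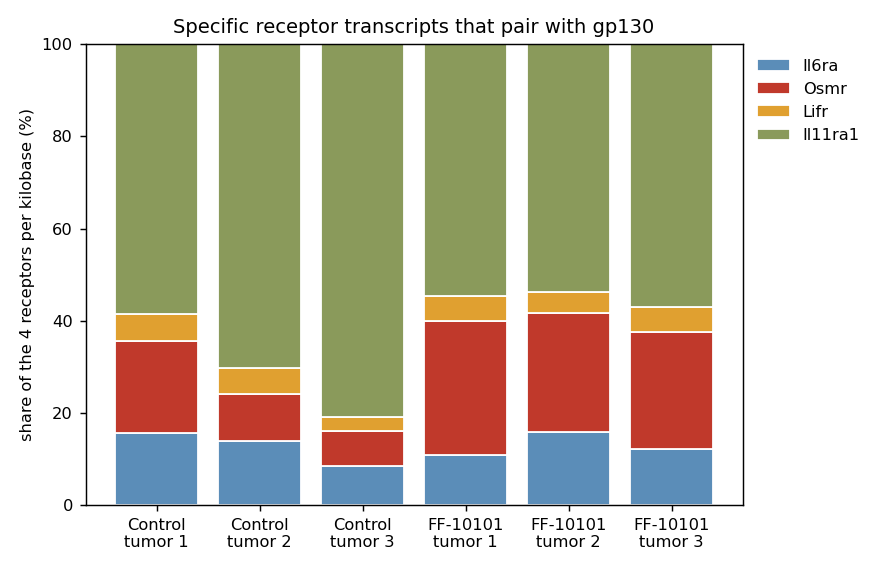
Stacked bars of the share (%) of *Il6ra*, *Osmr*, *Lifr* and *Il11ra1* in the sum of their normalized counts per kilobase, for each of the 6 tumors. *Osmr* takes 25.4% to 29.0% in the FF-10101–treated tumors and 7.6% to 19.9% in the control tumors, and control tumor 1 is the control nearest to the treated tumors.

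*Stat3* (ENSMUSG00000004040) had 2519, 1179 and 998 normalized counts in control tumors 1, 2 and 3 and 2476, 2064 and 2497 in the FF-10101–treated tumors. Control tumor 1 was the highest of the 6, and the other 2 controls were below every treated tumor. The mean was 1566 ± 831 against 2346 ± 244 (SD, n = 3 each). The log2 fold change was 0.70, with a standard error of 0.32 (limma adjusted p = 0.33). Exons of *Stat3* overlap exons of *Stat5a* on the opposite strand, and the strand setting of the counting is not given in the sources used here, so reads of the overlap may be shared.

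*Socs3* (ENSMUSG00000053113), the inhibitor whose promoter is shown above, had control tumor 1 highest and the other controls lowest as well. It had 1591, 843 and 956 normalized counts in the control tumors and 1493, 1360 and 1383 in the treated tumors, which lay within a narrow range under control tumor 1. The mean was 1130 ± 403 against 1412 ± 71.0 (SD, n = 3 each), and the log2 fold change was 0.38 (SE 0.24, limma adjusted p = 0.453).

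Control tumor 1 was the highest control for all 9 genes, by 1.32 (*Osm*) to 3.43 times (*Il6*) the mean of the other 2 controls, and it was the highest control for 44.6% of all tested genes. Without it, 5 of the 8 tested members passed an adjusted p of 0.05, all higher in the treated tumors, where 12.0% of all tested genes passed as higher, 9.88% as lower and 21.9% in all. The 5 were *Il6* (log2 fold change 2.27, adjusted p = 0.041), *Il6st* (1.18, adjusted p = 0.00893), *Osmr* (1.89, adjusted p = 0.00049), *Stat3* (1.11, adjusted p = 0.00338) and *Socs3* (0.65, adjusted p = 0.0131), all from limma on 2 control and 3 treated tumors. Of these, *Il6* met the minimum mean of 10 only through the treated tumors. *Lifr*, *Il6ra* and *Osm* did not pass, with log2 fold changes of 0.60, 0.53 and -0.25. Over all alternatives run the adjusted p of these 5 reached 0.67 for *Il6*, 0.648 for *Il6st* and *Osmr*, 0.741 for *Stat3* and 0.811 for *Socs3*, and no other alternative brought a member past the threshold. Endothelial markers summed over 10 genes were 8925 in control tumor 1, 2735 to 3614 in the other controls and 8469 to 9119 in the treated tumors. Of the 10, 7 had an unadjusted p under 0.05 as higher, beside 8.77% of all tested genes. Fibroblast and sarcoma markers summed to 313321 in control tumor 1, 130318 to 163826 in the other controls and 255459 to 361676 in the treated tumors, with none at 0. The collagen gene *Col3a1* was the largest of them in every tumor. Of these 12 markers, 11 had a log2 fold change above 0, beside 7252 of all 13963 tested genes. An unadjusted p under 0.05 as higher was reached by 4, beside 8.77% of all tested genes. In 4 of the 12 markers the treated tumors were above every control tumor, beside 10.9% of all tested genes. The others overlapped between the groups, among them *Col3a1* at 1.01, *Vim* at -0.16 and *Fn1* at 0.05. The part of either set of markers in the levels of the 9 genes was not tested.

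**Figure D3:**
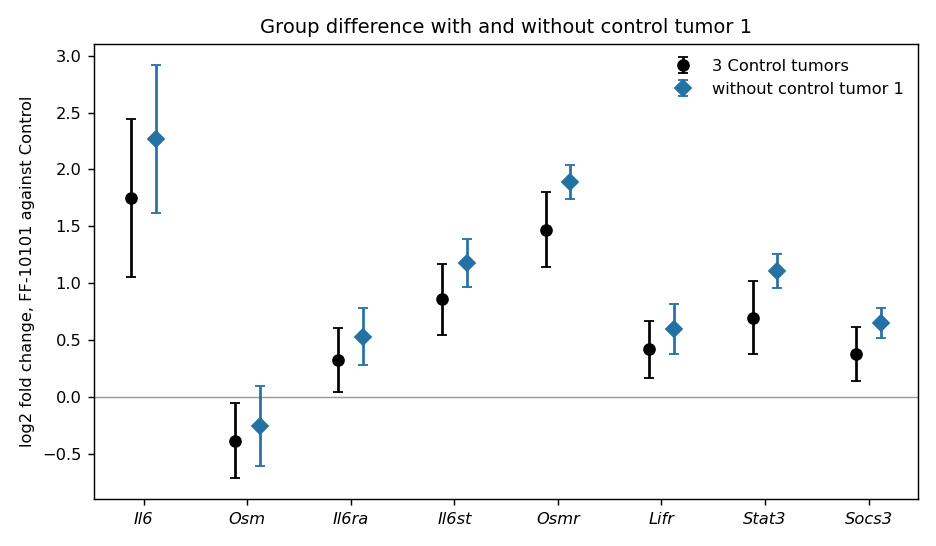
Log2 fold change of FF-10101 against Control on the log2(normalized count + 1) scale for the 8 tested members, from all 6 tumors (black circles) and without control tumor 1 (blue diamonds); bars are standard errors from limma. Leaving out control tumor 1 moves *Osmr* from 1.47 to 1.89 and *Stat3* from 0.70 to 1.11, and *Osm* stays below 0.

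The genes with the most like pattern were sought among 11105 genes with a mean of at least 50, by the root mean square difference of log2 values centred over the 6 tumors. For *Socs3* they were *Crip2* and *Lmo4*, which encode LIM domain proteins, at 0.04 and 0.05. For *Stat3* they were *Eng*, the endothelial TGF-β coreceptor endoglin, and *Adar*, an interferon-inducible RNA editing enzyme, at 0.07 and 0.08. *Osmr* was nearest to *Olfr56* (0.06), an odorant receptor gene whose exons overlap those of the interferon-inducible GTPase gene *Ifi47*, and to *Ecm2* (0.10), an extracellular matrix gene. *Il6st* was nearest to *Enpp4* (0.07) and to *Notch3* (0.08), a receptor of pericytes and smooth muscle. *Lifr* was nearest to *Arsb* and *Kdm4b* (0.06 each) and *Il6ra* to *Prdm2* and *Tmcc3* (0.08 each). The sparsely read ligand genes had larger distances: *Osm* was 0.14 from *Wrap53* and *Rrp12*, and *Il6* was 0.37 from *Fndc1* and from *Cxcl11*, an interferon-induced chemokine gene. These distances over 6 tumors carry no test.

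Around the 9 members, 99 further genes of the pathway were listed by role, and 76 of them were tested. None passed an adjusted p of 0.05 (limma). An unadjusted p under 0.05 was reached by 16 as higher, beside 8.77% of all tested genes, and by 1 as lower, beside 1046 of 13963. Treated tumors were above every control tumor in 11, beside 10.9% of all tested genes. The median log2 fold change was 0.31 over these genes and 0.56 over the tested members, and 0.02 over all tested genes. Without control tumor 1, 35 passed an adjusted p of 0.05 as higher and 3 as lower, beside 12.0% and 9.88% of all tested genes.

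Acute phase genes, which IL-6 and STAT3 are known to induce in liver and stroma, had the highest median difference of the pathway lists. Of 19 listed, 9 were tested, and all 9 had a log2 fold change above 0 (median 1.61). Of all 13963 tested genes, 7252 were above 0 (median 0.02). An unadjusted p under 0.05 was reached by 7 of the 9, and in 5 the groups did not overlap, beside 8.77% and 10.9% of all tested genes in that direction. Neutrophil markers had a median of 1.77, with 5 of 8 at an unadjusted p under 0.05, *Stfa2l1* among them with the limit given above. Endothelial markers had a median of 1.11, with 7 of 10. The part of either set of markers in the acute phase values was not tested. *Ptx3*, a soluble pattern recognition protein of stromal and myeloid cells, had 319, 27.2 and 28.8 normalized counts in the control tumors and 496, 407 and 451 in the treated tumors (log2 fold change 2.81, SE 0.84, limma adjusted p = 0.229). *Steap4*, a metalloreductase, had 116, 25.0 and 41.0 against 147, 174 and 336 (log2 fold change 2.03, SE 0.56, limma adjusted p = 0.229). In both, control tumor 1 was the control nearest to the treated tumors. The liver-restricted fibrinogen genes *Fga*, *Fgb* and *Fgg* had 0 reads in every tumor, which allows up to 3 reads each.

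All 9 inhibitors of the pathway had a log2 fold change above 0 (median 0.36), and 2 had an unadjusted p under 0.05 as higher. Of all 13963 tested genes, 7252 were above 0, and 8.77% had such a p as higher. *Socs2*, a SOCS family member induced mainly by STAT5, had 188, 122 and 113 normalized counts in the control tumors and 313, 350 and 308 in the treated tumors. Its groups did not overlap, and its log2 fold change was 1.23, with a standard error of 0.23 (limma adjusted p = 0.224). *Socs1*, the main inhibitor of interferon signaling, had 1252, 464 and 460 against 1204, 865 and 734, and its log2 fold change was 0.50 (SE 0.39). Of the 6 other STAT genes, all above 0 in log2 fold change (median 0.47), *Stat2* had 962, 417 and 366 against 1198, 1015 and 1102, groups that did not overlap. Its log2 fold change was 1.06, with a standard error of 0.34 (limma adjusted p = 0.238).

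STAT3 target genes lay on both sides of 0. Of 24 tested, 15 had a log2 fold change above 0 (median 0.23), 2 had an unadjusted p under 0.05 as higher and 1 as lower. Of all 13963 tested genes, 7252 were above 0 (median 0.02), 1224 had such a p as higher and 1046 as lower. The largest positive values were those of *Muc1*, a membrane mucin, and *Hif1a*, the hypoxia-inducible transcription factor, at 0.67 and 0.62 (standard errors 0.49 and 0.26). The largest negative values were those of *Birc5*, the mitotic survival gene survivin, and *Fosl1*, an AP-1 subunit, at -0.95 and -0.82 (standard errors 0.29 and 0.48). *Birc5* had 580, 830 and 1055 normalized counts in the control tumors and 593, 343 and 347 in the treated tumors, and the groups overlapped through control tumor 1 and FF-10101 tumor 1. Without control tumor 1, 10 of the 24 passed an adjusted p of 0.05 as higher and 3, *Birc5*, *Fosl1* and the cyclin gene *Ccnd1*, as lower (limma), beside 12.0% and 9.88% of all tested genes. The share of lower genes is close to that of all tested genes.

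Of the 8 kinases and adaptors tested, 1 had an unadjusted p under 0.05 as higher, beside 8.77% of all tested genes. It was *Jak2*, a kinase bound to gp130, with 996, 679 and 544 normalized counts against 995, 1328 and 1477 (log2 fold change 0.80, SE 0.25, limma adjusted p = 0.235). *Jak1*, *Tyk2* and the adaptor gene *Shc1* had 0.43, -0.19 and -0.00 (standard errors 0.28, 0.22 and 0.17).

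Of the other ligands of the family, 6 of 9 were tested. *Clcf1*, a cardiotrophin-like cytokine, had a log2 fold change of -0.18 (SE 0.31). *Il27* and *Ebi3*, the subunits of IL-27, had 0.62 and -0.65 (standard errors 0.51 and 0.34), and the groups overlapped for both. *Il31* had 0 reads in every tumor. The receptors *Il27ra* and *Il11ra1* were at 0.10 and -0.07 (standard errors 0.27 and 0.22).

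**Figure D4:**
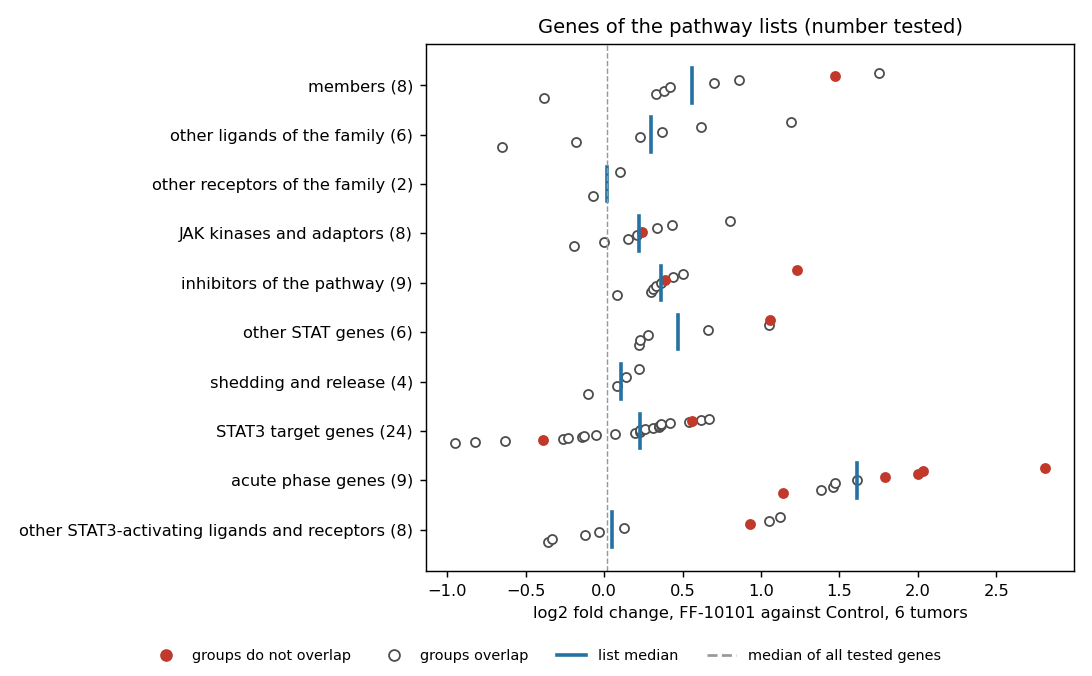
Log2 fold change of FF-10101 against Control for the tested genes of each list (points; number tested in parentheses), with list medians as blue lines and the median of all tested genes (0.02) as a dashed line; filled red points are genes whose groups do not overlap. Acute phase genes lie furthest to the right (median 1.61), and STAT3 target genes spread on both sides of 0 (median 0.23).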

How the data were processed

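Whole tumors of 2 groups of 3 mice were profiled by bulk RNA sequencing, and groups were taken from the sample titles. The authors trimmed reads with fastp 0.19.5, quantified transcripts with Salmon 1.5.1, with GENCODE vM27 (GRCm39) as the annotation, and tested genes with DESeq2 1.22.1. The deposited table holds log2 values (4.43 to 16.91), not the normalized counts planned for. They have the form of a variance-stabilizing transformation, which is not given in the sources used here. Inverting it gave whole reads for 100% of 325854 values (tolerance 1e-06 reads), from which normalized counts were taken.

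The planned test was limma 3.58.1 in R 4.3.3 (trend, group as the sole term) on log2(normalized count + 1), over genes with a mean of at least 10, adjusted by Benjamini-Hochberg. Fold changes of sparsely read genes are understated on this scale. Single values were compared by exact two-sided permutation tests over tumors. P-values measure the spread between 3 mice a group. Limits on 0 reads (3 reads, 2.29 to 3.38 normalized counts) cover counting error only. The fit was tested on simulated data.

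The 9 genes, the lists and the tests were chosen with earlier results of these data known. Named are all 9 members, the 2 largest positive and 2 largest negative tested genes of each other list, and the 2 genes of most like pattern per member, leaving out predicted genes and pseudogenes, and 2 genes that this rule names are not reported here. *Ccnd1*, *Il31*, the fibrinogen genes and the neutrophil, macrophage and fibroblast markers were named after their values were seen. Symbols (51484 of the identifiers) and transcript lengths came from GENCODE vM21, a GRCm38 annotation, so no coordinates of the files are given. Alternatives were pseudocounts of 0.5 and 10, a minimum mean of 50 or none, quantile normalization or 75th percentile scaling, the deposited values used directly, limma-voom, a fit without trend, a block for the replicate number, leaving out each tumor, and other lengths for receptor shares.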

Additional observations from a re-analysis of the deposited data

How the results depend on the processing

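The count of members past an adjusted p of 0.05 was 0 under every alternative but 1: with each tumor left out in turn it ran from 0 to 5, the 5 without control tumor 1. In the same way pathway genes ran from 0 to 38, with 38 without control tumor 1, and all tested genes from 1 to 3051, with 3051 without control tumor 1 and 6 with all tumors. The count over all genes was also 3 at a mean of at least 50, 17 with no minimum and 1 with the replicate number as a block. The replicate numbers do not pair the tumors (correlations of same-numbered deviations -0.29, -0.04 and -0.28), no tumor was closest to its own number, and with the replicate block 0 members passed. The log2 fold change of *Il11* ran from -0.32 to 0.19 with each tumor left out and was above 0 only without control tumor 1, on 6 to 13 reads a tumor. Those of the other 8 genes kept their sign under every alternative run, with *Il6* from 0.63 (the deposited values used directly) to 2.27. With 1 tumor left out the smallest sizes were 0.15 for *Il6ra*, 0.20 for *Lifr*, 0.44 for *Stat3* and 0.55 for *Il6st*, all without control tumor 3, 0.19 for *Socs3* without control tumor 2 and -0.15 for *Osm* without FF-10101 tumor 2. *Osm* was -0.65 and *Il6ra* 0.58 without FF-10101 tumor 1. Differences in receptor share kept their sign for *Osmr* (11.7 to 17.9) and *Il11ra1* (-20.5 to -9.35). For *Il6ra* the difference was -1.78 points with no division by length and ran from -1.83 to 1.82 with each tumor left out, and for *Lifr* it was -0.211 and ran from -0.551 to 0.794. The causes were not tested.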

Other observations

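STAT3 is also activated by receptors outside the IL-6 family, and 8 of 15 listed ligands and receptors of this kind were tested. *Csf3r*, the receptor of granulocyte colony-stimulating factor and a gene of neutrophils and monocytes, had 669, 221 and 166 normalized counts in the control tumors and 594, 654 and 658 in the FF-10101–treated tumors (log2 fold change 1.12, standard error 0.46, limma adjusted p = 0.292). Control tumor 1 was above the treated tumors, and the other controls were below them. *Egfr*, an epithelial and stromal growth factor receptor named after its values were seen, had 292, 271 and 140 against 474, 416 and 388, groups that did not overlap (log2 fold change 0.93, standard error 0.29, limma adjusted p = 0.233). The leptin receptor gene *Lepr* had 20.3, 12.0 and 4.44 against 9.93, 27.1 and 41.8. *Il10* and *Egf* had log2 fold changes of -0.36 and -0.33 (standard errors 0.46 and 0.59), and *Il22* had 0 reads in every tumor.

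The proteases that release the IL-6 receptor from the membrane and their regulators overlapped between the groups. The log2 fold changes of *Adam17*, *Rhbdf2* and *Adam10* were 0.22, 0.14 and -0.10 (standard errors 0.21, 0.29 and 0.15). An unadjusted p under 0.05 was reached by 0 of the 4 genes listed, beside 16.3% of all tested genes in either direction.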
